A study of Homo sapiens with 15 samples.

Results

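Matrix metalloproteinases (MMPs), their tissue inhibitors (TIMPs), ADAMTS-like matrix proteins and the SMAD signal transducers of the transforming growth factor beta (TGF beta) family were followed in Caco-2, a line from a human colon carcinoma whose cells come to resemble enterocytes once confluent. The genes were chosen by symbol in the platform annotation: COL, MMP or TIMP followed by a digit, LAMA, LAMB or LAMC followed by a digit, or a symbol starting with ITGA, ITGB, ADAMTS, TGFB or SMAD. Of 14884 symbols on the array, 50 matched. They held 20 MMPs, 4 TIMPs, 6 ADAMTS-type genes, 8 SMADs and 1 collagen, COL26A1, and 11 further symbols matched by their letters alone: antisense RNAs, integrin-binding proteins and the adaptor TGFB1I1. The number of matching laminins, integrin subunits, and TGF beta ligands or receptors was 0 for each. The set is therefore one of matrix proteases, inhibitors and SMADs, and the matrix and adhesion genes on rows without a symbol were not analysed here.

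The 15 arrays formed 3 groups of 5, which the labels set apart by treatment. LPS+RSV cells were given 50 µM trans-resveratrol, a plant polyphenol dissolved in ethanol, 1 h before lipopolysaccharide (LPS, a cell wall endotoxin of Gram-negative bacteria, here from E. coli K12) at 1 µg/mL for 48 h, LPS cells had the endotoxin alone, and control cells were untreated. Experiments fell between 15 and 19 days after seeding, and the labels do not assign arrays to days, say whether the LPS and control cells received ethanol, or say that replicates came from separate cultures, so that the spread behind the p-values is that of these 15 arrays and may be technical. A resveratrol group without LPS is not among the samples, and all arrays come from 1 cell line.

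MMPs are zinc proteases that cut collagens, laminins, growth factor precursors and each other, and TIMPs bind and block them. ADAMTS-like proteins resemble ADAMTS proteases without the catalytic domain and associate with fibrillin microfibrils, which store TGF beta in latent form. SMADs carry the receptor signal to the nucleus: SMAD2 and SMAD3 act below TGF beta and activin receptors, SMAD1, SMAD5 and SMAD9 below bone morphogenetic protein (BMP) receptors, SMAD4 is their shared partner, and SMAD6 and SMAD7 inhibit. In the intestine BMP and TGF beta signals restrain crypt cell division, and LPS is sensed through TLR4.

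Values were log2 expression on the scale the authors deposited, and a gene was represented by the probe set of highest mean. A gene was tested if it lay above the 40th percentile of an array, a value between 5.03 and 5.09, in 5 or more of the 15 arrays, as 37 of the 50 genes did. The 13 untested genes are ADAMTS9-AS2, ADAMTSL3, COL18A1-AS2, ITGB1BP2, TGFB2-AS1, MMP8, MMP10, MMP12, MMP13, MMP16, MMP21, MMP26 and MMP27, with single values between 3.01 and 5.31. Chromosome 11 carries a cluster of 7 of the MMPs, of which 2, MMP1 and MMP20, passed this filter. MMP13, a collagenase of that cluster, had 3.41, 3.30, 3.62, 3.51 and 3.58 in LPS+RSV cells, 3.79, 3.57, 3.52, 4.20 and 4.39 in LPS cells and 3.01, 3.22, 3.18, 3.61 and 3.78 in control cells. Its LPS and control values overlapped, and every one lay below the filter. Of 17 epithelial and enterocyte markers 12 had a named probe set and all 12 were tested. Their mean lay between 9.02 and 9.49 on LPS+RSV arrays, 9.09 and 9.56 on LPS arrays, and 9.05 and 9.30 on control arrays. KRT18, the 1 of these that was called, averaged 9.88 ± 0.21 in LPS+RSV cells, 10.55 ± 0.12 in LPS cells and 9.82 ± 0.21 in control cells. Its limma adjusted p was 0.0474 for LPS+RSV against LPS and 0.038 for LPS against control. Of 9 immune cell markers 5 had a named probe set and were tested, with a mean between 7.14 and 7.51 over all arrays. They include CD68, a lysosomal glycoprotein abundant in macrophages, at 11.71 ± 0.32 in LPS+RSV cells, 11.43 ± 0.16 in LPS cells and 11.51 ± 0.33 in control cells. Of 7 endothelial markers 5 had a named probe set and 4 were tested, with a mean between 5.52 and 6.01. Of 11 fibroblast markers, 6 had a named probe set and 4 were tested. DCN and TWIST1 were below the filter, and the mean of the 6 lay between 4.76 and 4.97 on LPS+RSV arrays, 4.91 and 5.15 on LPS arrays, and 4.84 and 4.95 on control arrays.

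A gene was called where limma gave it an adjusted p (Benjamini-Hochberg, over the 11804 genes tested) under 0.05. Of the 37 tested genes 0 were called in LPS against control, 0 in LPS+RSV against LPS, and 0 between LPS+RSV and control. Over all genes the called shares were 0.0254%, 0.0424% and 0.0%. The lowest adjusted p among the 37 was 0.351, 0.18 and 0.464 in that order. At an unadjusted p under 0.05 there were 4 of 37 genes in LPS against control (10.8%, against 7.88% of all genes): 3 higher, where all genes gave 4.62%, and 1 lower, where they gave 3.26%. LPS+RSV against LPS gave 4 genes (10.8%, against 18.6%), 1 higher (8.08% of all genes) and 3 lower (10.5%). LPS+RSV against control gave 2 (5.41%, against 10.5%), 1 higher (4.09% of all genes) and 1 lower (6.4%). They came to 5 different genes: MMP15, MMP11, ADAMTSL4, ADAMTSL5 and SMAD5. These counts moved with single arrays. In LPS against control the count was 2 without LPS replicate 2, LPS replicate 3 or control replicate 1, and 7 without LPS replicate 4. For LPS+RSV against LPS it was 2 without LPS+RSV replicate 1 or LPS replicate 2. In LPS+RSV against control it was 0 without LPS+RSV replicate 1, control replicate 1 or control replicate 2, and 1 without LPS+RSV replicate 3 or 5. The 3 comparisons share arrays in pairs, so that a high LPS group enters 2 of them with opposite sign. In these bulk samples fewer cells of a kind and less RNA per cell cannot be told apart.

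**Figure D1:**
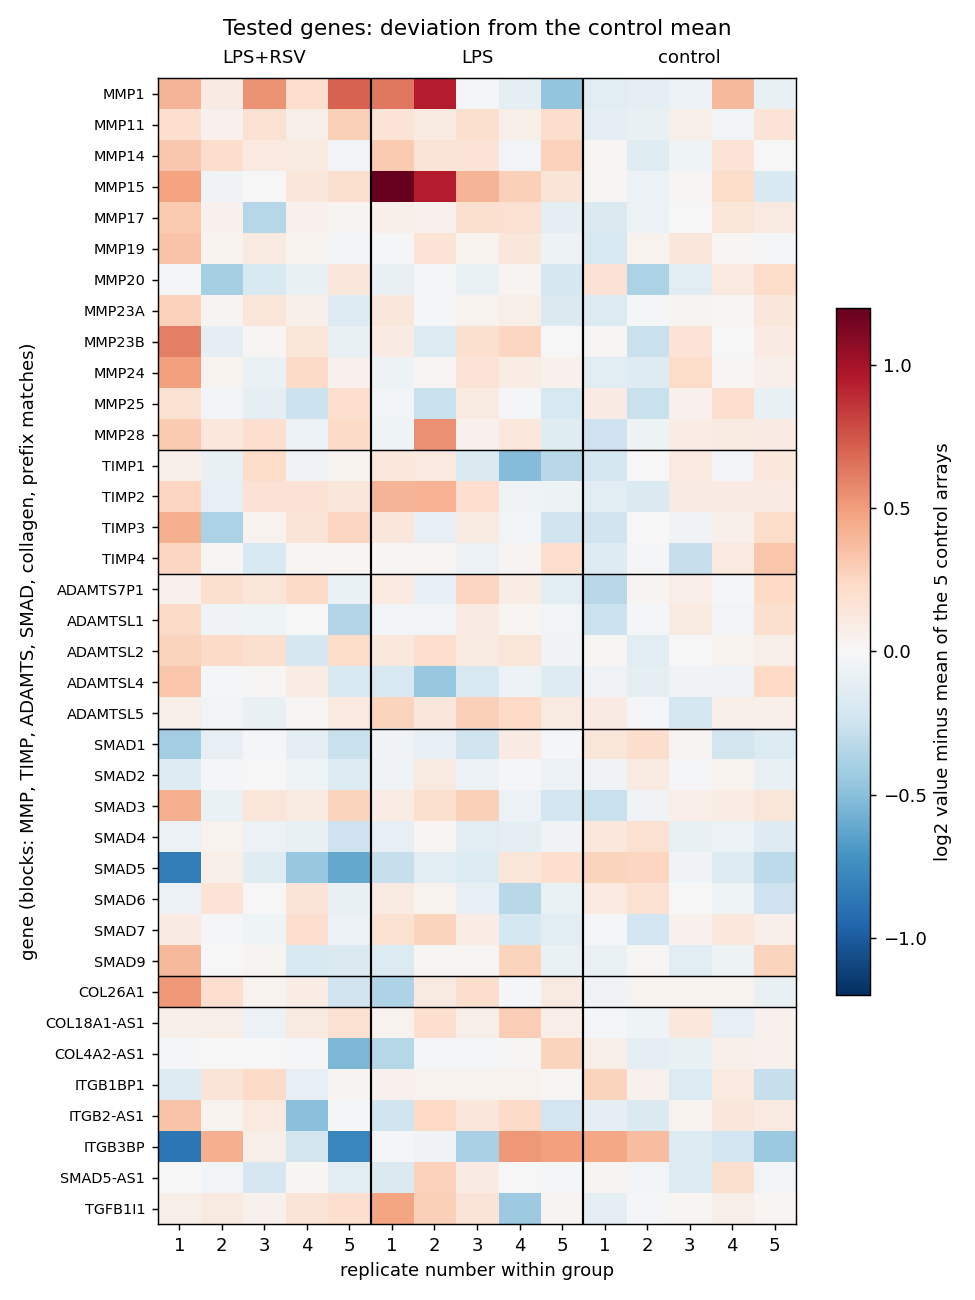
Each row is 1 of the 37 tested genes and each column 1 array, grouped as LPS+RSV, LPS and control; colour gives the log2 value minus the mean of the 5 control arrays. MMP15 is darkest in LPS replicates 1 and 2, MMP1 in LPS replicate 2, LPS+RSV replicate 1 is above control in many MMPs, and SMAD5 and ITGB3BP vary within every group.

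The 250 bases before the annotated start of the 4 genes at an unadjusted p under 0.05 in LPS+RSV against LPS are shown because these are the genes whose values the report follows most closely. They come from RefSeq (GRCh38.p14), 5′ to 3′ on the gene's strand. Capitals mark CAGAC, a motif that SMAD proteins bind, or its complement GTCTG. The motif of the AP-1 factors, TGANTCA, was searched on both strands too and has 0 matches in these 4. The regions are chr1:150549158-150549407 (plus strand) for ADAMTSL4, chr19:1513020-1513269 (minus strand) for ADAMTSL5, chr16:58025504-58025753 (plus strand) for MMP15 and chr5:136132595-136132844 (plus strand) for SMAD5.
ADAMTSL4: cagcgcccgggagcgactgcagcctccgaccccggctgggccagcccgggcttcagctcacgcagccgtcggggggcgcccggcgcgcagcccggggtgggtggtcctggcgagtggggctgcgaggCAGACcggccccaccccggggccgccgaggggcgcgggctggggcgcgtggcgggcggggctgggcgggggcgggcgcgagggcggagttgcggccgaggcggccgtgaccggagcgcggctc
ADAMTSL5: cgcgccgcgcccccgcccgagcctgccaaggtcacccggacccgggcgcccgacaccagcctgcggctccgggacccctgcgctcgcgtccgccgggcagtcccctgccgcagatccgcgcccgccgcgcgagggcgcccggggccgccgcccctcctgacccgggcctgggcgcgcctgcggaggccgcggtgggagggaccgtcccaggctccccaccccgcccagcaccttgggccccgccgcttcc
MMP15: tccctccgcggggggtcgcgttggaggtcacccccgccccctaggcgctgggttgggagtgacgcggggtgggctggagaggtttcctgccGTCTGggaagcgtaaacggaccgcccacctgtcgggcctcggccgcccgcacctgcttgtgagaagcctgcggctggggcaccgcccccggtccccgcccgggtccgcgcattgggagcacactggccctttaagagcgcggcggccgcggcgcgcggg
SMAD5: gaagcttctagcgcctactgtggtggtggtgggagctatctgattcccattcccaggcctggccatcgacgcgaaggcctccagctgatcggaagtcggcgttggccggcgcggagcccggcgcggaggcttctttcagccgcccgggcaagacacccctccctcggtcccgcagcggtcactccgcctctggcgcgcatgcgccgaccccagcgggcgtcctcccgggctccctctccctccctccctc
ADAMTSL4 has 1 match, which begins 123 bases before the start, and MMP15 has 1, as GTCTG, 159 bases before it. ADAMTSL5 and SMAD5 have 0. Of 35116 RefSeq promoters of the same length, 38% hold CAGAC on either strand and 6.57% hold TGANTCA. The 38 genes of the set found in that table have 53 promoters, of which 45.3% hold CAGAC and 7.55% hold TGANTCA. GC content was 83.6% in ADAMTSL4, 83.2% in ADAMTSL5, 74.8% in MMP15 and 70.4% in SMAD5, against a median of 58% over all promoters.

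Among the membrane-anchored proteases, MMP15 (membrane-type 2 MMP) had the largest difference of the 37 genes for LPS relative to control cells, and likewise for LPS+RSV relative to LPS cells. MMP15 was 7.48, 6.95, 7.0, 7.13 and 7.19 in LPS+RSV cells, 8.29, 7.94, 7.40, 7.28 and 7.15 in LPS cells, and 7.01, 6.93, 7.01, 7.22 and 6.81 in control cells. LPS replicates 1 and 2 stood above all other arrays, while LPS replicate 5 lay below the highest control array and the groups overlapped. The means were 7.15 ± 0.21 in LPS+RSV cells, 7.61 ± 0.49 in LPS cells and 7.0 ± 0.15 in control cells (SD, n = 5 each). Against control, LPS cells differed by a log2 change of 0.62 ± 0.18 (SE, 95% interval 0.23 to 1.00), a 1.53-fold difference (limma adjusted p = 0.351). LPS+RSV cells differed from LPS cells by -0.46 ± 0.18 (limma adjusted p = 0.198) and from control cells by 0.15 ± 0.18 (adjusted p = 0.727). The exact permutation test of the 10 arrays gave a 2-sided p = 0.0159 for LPS against control and 0.0873 for LPS+RSV against LPS. Without LPS replicates 1 and 2 the differences were 0.28 and -0.13, and without LPS replicate 1 alone LPS+RSV against LPS was -0.29. With the score of 25 cell cycle genes as a covariate LPS against control was 0.74 (adjusted p = 0.0779), the lowest adjusted p that MMP15 reached in any alternative.

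MMP14 (membrane-type 1 MMP, an activator of other MMPs) differed less. MMP14 was 7.42, 7.30, 7.21, 7.20 and 7.06 in LPS+RSV cells, 7.41, 7.25, 7.26, 7.06 and 7.37 in LPS cells, and 7.12, 6.95, 7.04, 7.26 and 7.09 in control cells. All 3 groups overlapped, and LPS against control was 0.17 ± 0.08 (limma adjusted p = 0.64). LPS+RSV cells differed from LPS cells by -0.03 ± 0.08, with a 95% interval of -0.21 to 0.15. Of the GPI-anchored MMPs, MMP17 ranged from 5.70 to 6.36 in LPS+RSV cells, 5.94 to 6.24 in LPS cells and 5.87 to 6.19 in control cells, and MMP25 from 6.52 to 6.98 in LPS+RSV cells, 6.51 to 6.88 in LPS cells and 6.51 to 6.98 in control cells. MMP24, another membrane-anchored MMP, reached its highest value, 7.64, in LPS+RSV replicate 1, where the other 4 LPS+RSV arrays lay between 7.07 and 7.38. In LPS+RSV against control the probe set used for MMP24 gave 0.15 and its dimmer one 0.25. In LPS+RSV against LPS the probe set used for MMP25 gave 0.08, and its dimmer ones 0.24 and 0.07. MMP23A and MMP23B are near-identical copies on chromosome 1, so that their probes may not separate them and both are uncertain. Their log2 changes lay between 0.01 and 0.11 in the 3 comparisons.

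**Figure D2:**
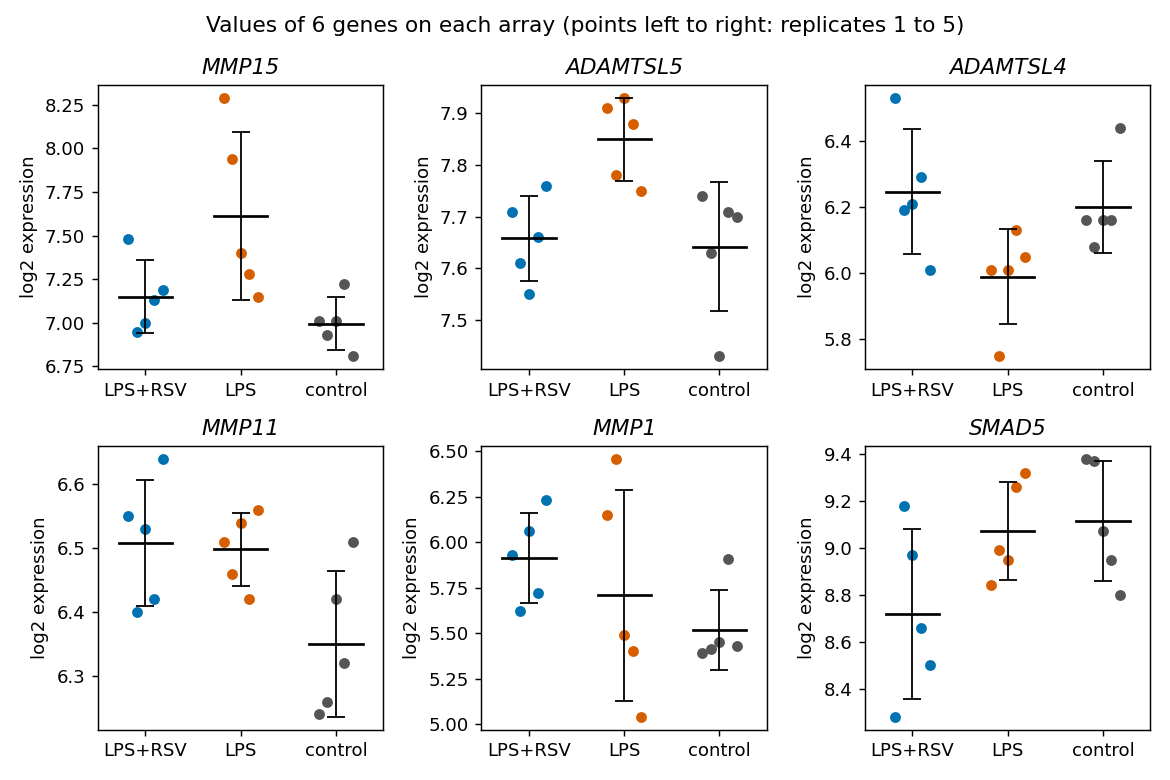
Log2 expression of 6 genes on each array (points, replicates 1 to 5 from left to right) with group mean and SD (bars), for LPS+RSV, LPS and control. The spread of MMP15 and MMP1 is largest in LPS, where the SDs are 0.49 and 0.58, and ADAMTSL5 is the gene whose LPS and control values do not overlap.

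Of the secreted MMPs, MMP1 (interstitial collagenase) also set LPS replicates 1 and 2 apart from the other LPS arrays. MMP1 was 5.93, 5.62, 6.06, 5.72 and 6.23 in LPS+RSV cells, 6.15, 6.46, 5.49, 5.40 and 5.04 in LPS cells, and 5.39, 5.41, 5.45, 5.91 and 5.43 in control cells. The LPS group spanned the range of both others, and in control cells replicate 4 alone lay above 5.45. LPS+RSV against control was 0.39 ± 0.22 (limma adjusted p = 0.493, unadjusted exact 2-sided permutation p = 0.0397), the highest log2 change of the 37 genes in that comparison. LPS against control was 0.19 ± 0.22, and -0.21 without LPS replicates 1 and 2 (limma adjusted p = 0.97). MMP11 (stromelysin-3), an MMP first known from tumour stroma, was 6.55, 6.40, 6.53, 6.42 and 6.64 in LPS+RSV cells, 6.51, 6.46, 6.54, 6.42 and 6.56 in LPS cells, and 6.24, 6.26, 6.42, 6.32 and 6.51 in control cells. Control replicates 1, 2 and 4 lay below every array of the treated groups, and control replicates 3 and 5 overlapped with them. MMP11 differed from control by 0.16 ± 0.07 in LPS+RSV cells (limma adjusted p = 0.464) and by 0.15 ± 0.07 in LPS cells (limma adjusted p = 0.629). The exact 2-sided permutation p of MMP11 was 0.0635 and 0.0397 in that order. LPS+RSV and LPS cells differed by 0.01, with a 95% interval of -0.14 to 0.15.

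Over all 12 tested MMPs, the log2 change was above 0 for 10 in LPS against control, with a median of 0.08, for 8 in LPS+RSV against LPS (median 0.04) and for 10 in LPS+RSV against control (median 0.13). Across all 11804 genes the medians were 0.01, 0.01 and 0.02, and 52.7%, 52.1% and 55.8% of genes lay above 0. On LPS+RSV replicate 1 many of the genes were high: over the 37 genes its median deviation from each gene's 15-array mean was 0.19, against -0.06 to 0.01 in the other 4 LPS+RSV arrays, -0.07 to 0.05 in LPS and -0.10 to -0.00 in control. Without that array the number of MMPs above 0 was 5 in LPS+RSV against LPS (median -0.01) and 8 in LPS+RSV against control (median 0.05), while LPS against control does not contain it. MMP19, MMP20 and MMP28 completed the class, and the limma adjusted p of each was at least 0.593.

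The 4 TIMPs were all tested, and their log2 changes lay between -0.16 and 0.19. TIMP1 was 8.74, 8.59, 8.90, 8.64 and 8.72 in LPS+RSV cells, 8.81, 8.80, 8.51, 8.16 and 8.35 in LPS cells, and 8.47, 8.68, 8.80, 8.65 and 8.81 in control cells. LPS replicates 4 and 5 were the lowest arrays of all, and LPS replicates 1 and 2 were level with the highest control arrays. The differences were -0.16 ± 0.12 for LPS against control (limma adjusted p = 0.804) and 0.19 ± 0.12 for LPS+RSV against LPS (adjusted p = 0.388). For TIMP1 they were -0.06 and 0.10 without LPS replicate 4, -0.34 and 0.38 without LPS replicates 1 and 2, and -0.04 and 0.03 with the cell cycle score as a covariate. TIMP2 was 9.31, 8.95, 9.23, 9.23 and 9.19 in LPS+RSV cells, 9.46, 9.47, 9.25, 9.01 and 8.99 in LPS cells, and 8.93, 8.88, 9.15, 9.15 and 9.15 in control cells. LPS replicates 1 and 2 were again the highest, and LPS against control was 0.18 ± 0.11 (limma adjusted p = 0.728). TIMP3, which stays bound to the matrix, averaged 9.33 ± 0.30 in LPS+RSV cells, 9.21 ± 0.16 in LPS cells and 9.23 ± 0.17 in control cells (SD, n = 5 each). LPS+RSV against LPS was 0.13 ± 0.13 for TIMP3, and its dimmer probe set gave the same difference, 0.13. Elsewhere the dimmer probe set of TIMP3 differed from the one used. It gave 0.04 in place of -0.03 in LPS against control, and 0.17 in place of 0.10 in LPS+RSV against control. TIMP4 averaged 5.09, 5.10 and 5.06 in LPS+RSV, LPS and control cells, with all log2 changes between -0.02 and 0.04.

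Of the ADAMTS-like genes, ADAMTSL5 and ADAMTSL4 had an unadjusted p under 0.05 both for LPS relative to control cells and for LPS+RSV relative to LPS cells. ADAMTSL5, whose product binds fibrillin, was 7.71, 7.61, 7.55, 7.66 and 7.76 in LPS+RSV cells, 7.91, 7.78, 7.93, 7.88 and 7.75 in LPS cells, and 7.74, 7.63, 7.43, 7.71 and 7.70 in control cells. Each of the 5 LPS values exceeded each control value, with 7.75 on the lowest LPS array and 7.74 on the highest control array. It was the 1 gene of the 37 whose groups did not overlap in LPS against control, where 2.21% of all genes did not overlap. LPS+RSV replicate 5 reached above the lowest LPS array. In LPS+RSV against LPS, where the share over all genes was 2.8%, and in LPS+RSV against control, where it was 1.72%, the count was 0. ADAMTSL5 differed by 0.21 ± 0.07 in LPS against control (limma adjusted p = 0.399). Its exact 2-sided permutation p = 0.00794 is the smallest that 5 against 5 arrays can give. Any gene without overlap has this p, so that it restates the lack of overlap and adds no support. The difference was -0.19 ± 0.07 in LPS+RSV against LPS (limma adjusted p = 0.18) and 0.02 ± 0.07 in LPS+RSV against control.

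ADAMTSL4, also a fibrillin-associated protein, had its lowest group mean in LPS. ADAMTSL4 was 6.53, 6.19, 6.21, 6.29 and 6.01 in LPS+RSV cells, 6.01, 5.75, 6.01, 6.13 and 6.05 in LPS cells, and 6.16, 6.08, 6.16, 6.16 and 6.44 in control cells. LPS replicate 2 was the lowest array and LPS replicate 4 the 1 LPS array within the control range. LPS against control was -0.21 ± 0.10 (limma adjusted p = 0.631) and LPS+RSV against LPS was 0.26 ± 0.10 (limma adjusted p = 0.194). The exact 2-sided permutation p of ADAMTSL4 was 0.0159 and 0.0317 in that order. ADAMTSL2, a microfibril protein that interacts with a latent TGF beta binding protein, averaged 6.85 ± 0.19, 6.82 ± 0.09 and 6.71 ± 0.07 in LPS+RSV, LPS and control cells (SD, n = 5 each), and LPS+RSV against control was 0.14 ± 0.09 (limma adjusted p = 0.519). ADAMTSL1 and ADAMTS7P1, a transcribed pseudogene that may share probes with its parent, differed by at most 0.11 on the log2 scale in the probe sets used. The dimmer probe set of ADAMTS7P1 gave 0.17 in LPS+RSV against control.

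**Figure D3:**
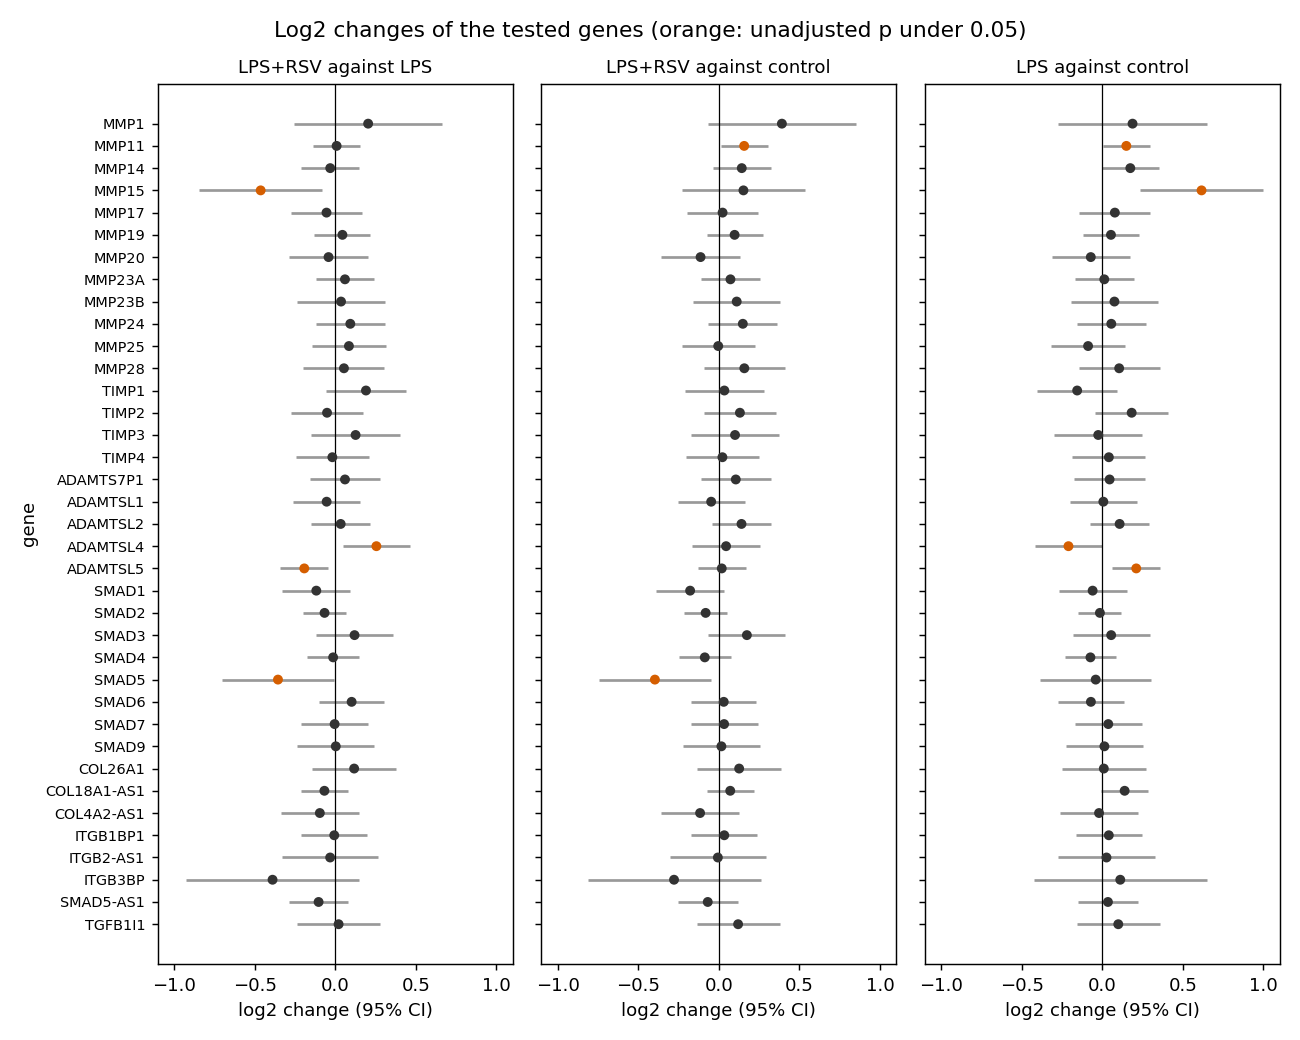
Log2 change (points) and 95% confidence interval (lines) of the 37 tested genes in the 3 comparisons, in orange where the unadjusted p is under 0.05. LPS against control has 4 orange points, LPS+RSV against LPS has 4, the comparison of LPS+RSV with control has 2, and 0 of the 37 genes passed the adjusted threshold in any panel.

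The SMADs of the TGF beta branch had small group differences. SMAD2 was 9.10, 9.23, 9.25, 9.21 and 9.09 in LPS+RSV cells, 9.22, 9.37, 9.19, 9.24 and 9.19 in LPS cells, and 9.22, 9.37, 9.23, 9.30 and 9.17 in control cells. The groups overlapped almost fully: the 95% interval was -0.20 to 0.07 for LPS+RSV against LPS and -0.15 to 0.12 for LPS against control. SMAD3 averaged 6.53 ± 0.19 in LPS+RSV cells, 6.41 ± 0.21 in LPS cells and 6.35 ± 0.16 in control cells (SD, n = 5 each), and LPS+RSV against control was 0.17 ± 0.11 (limma adjusted p = 0.544). SMAD4, the common partner, averaged 9.32 ± 0.10 in LPS+RSV cells, 9.34 ± 0.07 in LPS cells and 9.41 ± 0.14 in control cells, with log2 changes between -0.09 and -0.01. Of the inhibitors, SMAD6 had log2 changes of -0.07 for LPS against control cells and 0.10 for LPS+RSV against LPS cells, and SMAD7, itself a TGF beta target, had 0.04 and -0.00, with a 95% interval of -0.21 to 0.20 for LPS+RSV against LPS.

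In the BMP branch SMAD5 differed most. SMAD5 was 8.28, 9.18, 8.97, 8.66 and 8.50 in LPS+RSV cells, 8.84, 8.99, 8.95, 9.26 and 9.32 in LPS cells, and 9.38, 9.37, 9.07, 8.95 and 8.80 in control cells. LPS+RSV replicates 1, 4 and 5 lay below every array of the other groups, and LPS+RSV replicates 2 and 3 lay within their range. SMAD5 differed by -0.36 ± 0.16 in LPS+RSV against LPS (limma adjusted p = 0.257) and by -0.40 ± 0.16 in LPS+RSV against control (limma adjusted p = 0.464), and by -0.04 ± 0.16 in LPS against control. The exact 2-sided permutation p was 0.103 for LPS+RSV against LPS and 0.0794 for LPS+RSV against control. With the cell cycle score as a covariate, LPS+RSV against LPS was -0.00 (limma adjusted p = 0.994), LPS+RSV against control -0.31 (0.366) and LPS against control -0.31 (0.127). SMAD1 averaged 5.90 ± 0.16 in LPS+RSV cells, 6.02 ± 0.12 in LPS cells and 6.08 ± 0.19 in control cells, and SMAD9 averaged 5.68 in LPS+RSV cells, 5.68 in LPS cells and 5.66 in control cells. The antisense RNA SMAD5-AS1, named for the opposite strand of the SMAD5 locus, differed by -0.10 ± 0.09 in LPS+RSV against LPS.

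Within groups, several of these genes followed how strongly the culture expressed division genes. The cell cycle score, the mean log2 deviation of 25 division genes, was -0.55, 0.46, -0.16, -0.42 and -0.94 on LPS+RSV arrays, 0.21, 0.15, -0.03, 0.92 and 1.07 on LPS arrays, and 0.48, 0.47, -0.18, -0.38 and -1.08 on control arrays. Of these 25 genes, 25 had a higher mean in LPS than in control cells (median difference 0.62) and 0 a higher mean in LPS+RSV than in LPS cells (median -0.77), and 0 were called. Whether the score accounts for any group difference was not tested. In control cells SMAD5 ran in exactly the order of that score, but in LPS and LPS+RSV cells it did not. SMAD5 was lowest in replicate 1 of both treated groups, while the score was lowest in LPS replicate 3 and LPS+RSV replicate 5. In a limma fit with group means and the score, chosen after the data were seen, 7 of the 37 genes had a slope at an adjusted p under 0.05 (18.9%), against 22.8% of all 11804 genes, so that the share in the set was near the background. The positive slopes were those of SMAD5 (0.45 ± 0.07 log2 per unit of score, adjusted p = 0.000214), SMAD1 (0.22 ± 0.06, 0.0158) and SMAD4 (0.15 ± 0.05, 0.0357), and of ITGB3BP (0.74 ± 0.09, 2.01e-05), which encodes the centromere protein CENP-R and matched by its letters alone. SMAD3 (-0.28 ± 0.06, 0.00231), TIMP3 (-0.30 ± 0.07, 0.00611) and TIMP2 (-0.24 ± 0.06, 0.0107) had negative slopes. SMAD5 and SMAD3 thus carried slopes of opposite sign. Leaving out LPS replicate 5 and control replicate 5, the 2 arrays of most extreme score, kept the sign of all 7 and left SMAD4 short of the threshold (adjusted p = 0.133), with 6 of 37 genes (16.2%) against 14.9% of all genes. Labels give no batch within which the slopes could be refitted.

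**Figure D4:**
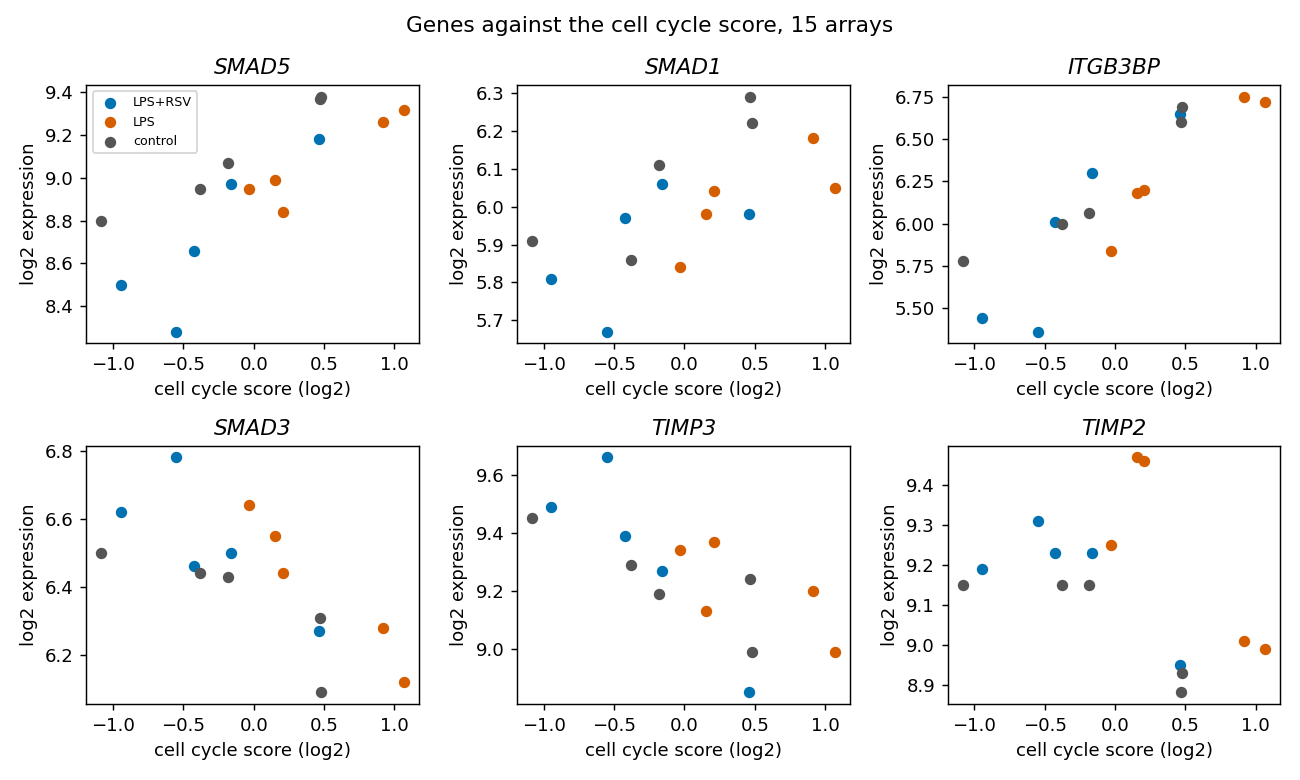
Log2 expression of 6 genes (vertical axis) against the cell cycle score (horizontal axis, mean log2 deviation of 25 division genes) on the 15 arrays, coloured by group. SMAD5, SMAD1 and ITGB3BP have positive slopes within groups (0.45, 0.22 and 0.74), and SMAD3, TIMP3 and TIMP2 negative ones (-0.28, -0.30 and -0.24).

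COL26A1, a minor collagen and the 1 collagen gene matched, was 7.10, 6.78, 6.62, 6.67 and 6.34 in LPS+RSV cells, 6.21, 6.69, 6.79, 6.56 and 6.69 in LPS cells, and 6.54, 6.62, 6.62, 6.62 and 6.49 in control cells. Control arrays lay between 6.49 and 6.62, and both treated groups had arrays on either side of them. Its log2 changes were 0.01 in LPS against control, 0.12 in LPS+RSV against LPS, and 0.13 between LPS+RSV and control, with limma adjusted p = 0.992, 0.637 and 0.676. Without LPS+RSV replicate 1, the highest array, the changes of COL26A1 were 0.02 against LPS and 0.03 against control, and without LPS replicate 1, the lowest, LPS+RSV against LPS was 0.02. ITGB1BP1, which binds the tail of the beta-1 integrin and restrains its activation, averaged 6.33 ± 0.16 in LPS+RSV cells, 6.34 ± 0.02 in LPS cells and 6.30 ± 0.22 in control cells. TGFB1I1 (Hic-5), a focal adhesion adaptor, averaged 6.54 ± 0.06 in LPS+RSV cells, 6.52 ± 0.34 in LPS cells and 6.42 ± 0.07 in control cells. For TGFB1I1, LPS+RSV against control was 0.12 ± 0.12 (limma adjusted p = 0.687). Its unadjusted exact 2-sided permutation p of 0.0238 was the lowest of the 37 genes in that comparison. ITGB3BP averaged 5.95 ± 0.55 in LPS+RSV cells, 6.34 ± 0.39 in LPS cells and 6.23 ± 0.40 in control cells (SD, n = 5 each), and LPS+RSV against LPS was -0.39 ± 0.25, and 0.19 with the cell cycle score in the fit. COL18A1-AS1, an antisense RNA of a collagen locus, was at 0.14 ± 0.07 in LPS against control (limma adjusted p = 0.654). The antisense RNAs COL4A2-AS1 and ITGB2-AS1 had log2 changes between -0.12 and 0.03 in the 3 comparisons.

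Genes around the set were read from lists of matrix, adhesion and TGF beta pathway genes, and 0 of them were called in any comparison. Of 18 tested matrix glycoproteins, proteoglycans and collagen-processing enzymes, 1 in LPS against control, 1 in LPS+RSV against LPS, and 2 between LPS+RSV and control had an unadjusted limma p under 0.05, where 7.88%, 18.6% and 10.5% of all genes did. LOXL4, a lysyl oxidase that crosslinks collagen, averaged 6.69 ± 0.09 in LPS+RSV cells and 6.45 ± 0.18 in LPS cells, a difference of 0.24 ± 0.08 (limma adjusted p = 0.17), and the difference from control was 0.29 ± 0.08 (limma adjusted p = 0.464). FBLN1 (fibulin) was at 7.97 ± 0.25 in LPS cells and 7.63 ± 0.21 in control cells (limma adjusted p = 0.554). Lumican (LUM), a matrix proteoglycan entered here among fibroblast markers, averaged 4.46 ± 0.25 in LPS+RSV cells, 5.43 ± 0.43 in LPS cells and 4.76 ± 0.29 in control cells. LUM differed by -0.98 ± 0.19 in LPS+RSV against LPS (limma adjusted p = 0.0648) and by 0.68 ± 0.19 in LPS against control (adjusted p = 0.33). Its LPS+RSV and control means lay below the filter value and its LPS mean above it. LUM may therefore have passed the filter mainly through the group where it is high, and these p-values are no support for a difference. The other fibroblast markers tested, among them VIM and THY1, had an unadjusted p over 0.05 in all comparisons.

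Of 16 tested integrin adhesion genes, 4 lay above control in LPS at an unadjusted limma p under 0.05, where 4.62% of all genes did, 4 lay below LPS in LPS+RSV, where 10.5% of all genes did, and 2, LIMS1 and DST, lay below control in LPS+RSV, where 6.4% did. CD9, a tetraspanin that associates with integrins, averaged 6.70 ± 0.14 in LPS+RSV cells and 7.05 ± 0.10 in LPS cells, a difference of -0.35 ± 0.08 (limma adjusted p = 0.103). DST, a hemidesmosome plakin gene, was at 9.50 ± 0.50 in LPS+RSV cells and 10.18 ± 0.43 in LPS cells (limma adjusted p = 0.153). Of 19 tested TGF beta family ligands, receptors and regulators, 4 lay above control in LPS at that p (4.62% of all genes did). In LPS+RSV cells 4 lay below LPS (10.5% of all genes), 1 above LPS (8.08%) and 1 below control (6.4%). Among them SKIL, a repressor of SMAD activity that TGF beta induces, averaged 6.72 ± 0.24 in LPS+RSV cells and 7.19 ± 0.25 in LPS cells (-0.47 ± 0.13, limma adjusted p = 0.127). LTBP4, a latent TGF beta binding protein, averaged 8.16 ± 0.27 in LPS+RSV cells and 7.58 ± 0.24 in LPS cells (0.58 ± 0.15, adjusted p = 0.119). GDF15 differed by 0.43 ± 0.11 and BMP2 by 0.36 ± 0.11 in LPS against control (limma adjusted p = 0.302 and 0.356). Of 9 tested matrix proteases and inhibitors outside the MMPs, 3 lay below LPS in LPS+RSV at that p (10.5% of all genes) and 1 above (8.08%). Against control 1, ADAM15, was higher in LPS (4.62% of all genes) and 1, ADAM10, lower in LPS+RSV (6.4%). Among the 3 were ADAM10 and ADAM9, sheddases of membrane proteins, at -0.33 ± 0.09 and -0.47 ± 0.14 in LPS+RSV against LPS (limma adjusted p = 0.127 and 0.145). Of 19 listed TGF beta target genes 8 had a named probe set and 5 were tested, as CCN2, SNAI2 and ZEB1 lay below the filter. Of the 5 tested, 5 had a higher mean in LPS than in control cells and 0 had a higher mean in LPS+RSV than in LPS cells, against 52.7% and 52.1% of all genes. In LPS+RSV against control 2 had a higher mean, against 55.8%. Genes of the 5 such as SKIL, TGIF1 and BAMBI are also on the list of regulators, so that the lists overlap and are not separate readings. SKIL was the 1 of the 5 with an unadjusted limma p under 0.05, lower in LPS+RSV than in LPS or control cells.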

How the data were processed

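Expression of total RNA (300 ng per sample, converted to biotin-labelled sense cDNA per the labels' protocols) was measured on 15 Affymetrix whole-transcript arrays of Caco-2 cells. The deposited values are log2 expression, 1 per probe set and array, made with RMA per the submitters' processing notes; its version, the annotation and the build are not given in the sources used here. RMA shrinks differences of dim probe sets, and quantile normalization removes overall shifts between arrays. The median of an array was 5.49 to 5.54. Precision is limited by the number of arrays.

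The table held 53617 rows: 16098 had 1 gene symbol in the platform annotation, 0 had several and 37519 were unnamed here. Each of 14884 symbols took its row of highest mean. Of the 50 matching symbols 46 had 1 row. Genes above the 40th percentile of an array in at least 5 arrays were fitted (11804) with limma 3.58.1 in R 4.3.3, with 3 group means and moderated variances, and p-values were adjusted by Benjamini-Hochberg over all genes of a comparison. The script was tested on simulated data. Exact permutation tests ran over all divisions of the 10 arrays compared, 2-sided, on single genes.

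Named genes followed a rule: 34 listed members, of which 11 had a row, the brightest of each class, the 5 of lowest p in each direction per comparison, and, per surrounding list and comparison, called genes and up to 2 of lowest p. MMP13, ADAMTSL1, ADAMTS7P1, SMAD9, TIMP4, ITGB1BP1, COL4A2-AS1, ITGB2-AS1 and the remaining MMPs were described beyond it to account for all members. Members and lists were chosen with earlier results of these data known.

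Alternatives changed the filter, rows per gene, normalization, moderation, array weights, groups in the fit, replicate block, cell cycle covariate and arrays left out.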

Additional observations from a re-analysis of the deposited data

Results flagged for a closer look

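In 69 groups of 5 arrays (23 named genes in 3 groups), 4 single arrays lay farther from the others than Dixon's 95% critical value of 0.71 for 5 samples, given as the share of the group's range taken by the gap to the nearest array. Chance alone flags about 1 group in 20. ADAMTSL2 was lowest in LPS+RSV replicate 4, at 6.51 against 6.91 for the nearest array (0.853 of the range). ADAMTSL4 was highest in control replicate 5, at 6.44 against 6.16 (0.759). MMP1 was highest in control replicate 4, at 5.91 against 5.45 (0.869). SMAD2 was highest in LPS replicate 2, at 9.37 against 9.24 (0.731).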

How the results depend on the processing

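The number of genes called stayed 0 in each comparison under all alternatives, the fit with no filter on dim genes included. At an unadjusted p under 0.05, LPS against control gave 9 genes in place of 4 with the cell cycle score as a covariate. LPS+RSV against control gave 1 in place of 2 with arrays centred on their median, 1 with quantile normalization over the named rows and 0 with array weights. It gave 3 with the mean of all rows of a symbol. With no filter, where all 50 genes were fitted, LPS against control and LPS+RSV against LPS each gave 6 in place of 4. Without LPS replicates 1 and 2, the number of genes whose LPS+RSV and LPS values did not overlap was 2 in place of 0. Leaving out 1 array at a time gave 2 to 7 genes at that p in LPS against control, 2 to 6 in LPS+RSV against LPS and 0 to 3 in LPS+RSV against control, with 0 called in each. Non-overlapping genes then numbered 1 to 3, 0 to 2 and 0 to 2, and medians of the 37 changes ran from 0.00 to 0.06, -0.02 to 0.03 and 0.02 to 0.09. With the replicate number as a block (replicate block), 3, 3 and 2 genes had that p and 0 were called. Deviations of same-numbered arrays correlated between -0.54 and 0.12 for LPS and control, and between -0.37 and 0.10 for LPS+RSV and LPS. For LPS+RSV and control the correlations were -0.44, 0.71, 0.06, 0.10 and 0.43 for replicates 1 to 5, so that some of these pairs varied alike. The rule was that every pair exceed 0.1, and in each comparison at least 1 pair lay below it. By that rule the numbers were not taken to pair the arrays. Of 1489 alternative values of the named genes, 1397 kept their direction, 92 changed the sign of a difference that was not called, and 0 passed the threshold. Alternatives such as another filter, other moderation or the permutation test leave a difference of group means as it is. Part of the 1397 therefore could not change sign, and their number does not measure robustness. The causes were not tested. The 5 arrays per group limit the precision.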
